A study of Drosophila melanogaster with 110 samples.

Results

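CTCF sites without CP190 are regions of the Drosophila melanogaster genome where CTCF was called repeatedly while CP190 was not. Merging the peaks of the 6 CTCF lists wherever they overlapped by 1 bp or more gave 2176 regions, of which the 1605 with peaks in 3 or more lists were kept, and the same was done for CP190, which gave 8038 kept regions. Of the 1605 kept CTCF regions, 474 overlapped no kept CP190 region and are described here, beside the other 1131. The sites were thus chosen by the calls of CTCF and CP190, and their values for both proteins are given as a description with no test.

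The lists come from ChIP-seq of Kc167 cells, an established embryonic line that the labels describe as hemocytes, so that a single cultured line stands for each condition. Cells received dsRNA for 4 days, against GFP in the control and against rump, which encodes an RNA-binding protein of the hnRNP M family, in rumpRNAi. For each of 12 proteins 3 control and 3 rumpRNAi libraries were used, and for the histone mark H3K27me3 there were 2 and 2. Every peak carries the fold enrichment over input that the authors' peak caller gave, and this value was also ranked as a percentile among all peaks of its own list.

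CTCF is a zinc finger protein that binds a long, conserved DNA motif and marks insulators and domain boundaries. In flies it is often joined by CP190, a BTB domain protein that does not rely on 1 motif of its own but is brought to DNA by several partners, among them Su(Hw), whose gypsy insulator complex also holds Mod(mdg4). The further targets are Crol, Cg (Combgap) and Pho, which are DNA-binding proteins found at Polycomb response elements, the PRC1 proteins Ph, Psc and Pc, the PRC2 proteins E(z) and Su(z)12, and the mark H3K27me3 that PRC2 deposits.

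The 200 bp around the CTCF summit held the core of the fly CTCF motif, AGNNGGCGC on either strand, at 279 of the 474 sites without CP190 (58.9%, 95% Wilson interval 54.4 to 63.2%) and at 410 of the 1131 sites with CP190 (36.3%, 33.5 to 39.1%). Among 668175 genome windows of the same length, 1.76% held it. Searched over the whole regions, the core was at 298 sites without CP190 (62.9%) and at 502 with CP190 (44.4%), a smaller gap. The 9 sites without CP190 below have a core, CTCF in all 6 lists and high ranks in each, and are shown in dm6 coordinates because they let the core and its flanks be read side by side. Capitals mark the core, each site takes the name of the gene whose transcription start was nearest, and the sequence is that of the strand that carries the core. The sites nearest pdm3 and swi2, which rank among these and hold a core, are not shown.
CG7329, chr2L:10615269-10615297, plus strand: gctgcccgctAGGGGGCGCcacaccggat
lncRNA:CR43434, chr3R:26432725-26432753, plus strand: agctgccgatAGATGGCGCtacgagttca
Or67d, chr3L:10271754-10271782, minus strand: accgcccgccAGTGGGCGCcactgtatac
snoRNA:Or-ACA8, chr3L:11892957-11892985, minus strand: accgctccccAGGTGGCGCcacactaagt
CG6839, chr3L:18916660-18916688, plus strand: agcagccgctAGATGGCGCcagataatga
CG12692, chrX:4293628-4293656, plus strand: tctggcccacAGATGGCGCtctgtcatcg
nAChRbeta2, chr3R:24503788-24503816, minus strand: cacgcccgccAGGGGGCGCtgccgtgcta
Acp36DE, chr2L:18348126-18348154, minus strand: taacgccgctAGGTGGCGCtgctgatggc
CG13699, chr3L:18161384-18161412, plus strand: tgctggcgccAGAGGGCGCtgcactaaac
Chosen in the same way, 3 sites with CP190 follow for comparison, and one of them shares its nearest gene, Or67d, with a site of the first set.
CG14042 (with CP190), chr2L:5036299-5036327, plus strand: gctttccagcAGATGGCGCacgttccaac
lncRNA:CR45941 (with CP190), chr3L:19177968-19177996, minus strand: aaaaagcgacAGGGGGCGCcactcaatcg
Or67d (with CP190), chr3L:10281989-10282017, minus strand: actctacgctAGAGGGCGCtgtcaaagag

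Of the 9 sites above, those nearest CG7329, lncRNA:CR43434, CG6839, snoRNA:Or-ACA8, CG12692, Acp36DE and CG13699 had the core within 10 bp of the CTCF summit, and those nearest Or67d and nAChRbeta2 had it 24 and 20 bp away. Over all 279 sites without CP190 that held a core, the median distance from core to summit was 7 bp, and 255 cores lay within 25 bp. Over the 410 sites with CP190 the median was 18 bp and 259 cores lay within 25 bp. The letters at the 2 open positions of the core also differed in share: AGGTGGCGC stood at 103 and AGATGGCGC at 95 of the sites without CP190, against 121 and 181 of the sites with CP190.

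In both classes the share of sites with a core was highest among the sites called in all 6 CTCF lists. Without CP190 it was 41.7% of 24 sites called in 3 lists, 32.6% of 43 in 4 lists, 51.3% of 76 in 5 lists and 65.3% of 331 in all 6. With CP190 it was 5.94% of 101, 9.20% of 87, 8.40% of 131 and 47.4% of 812 sites. Sites with CP190 called in fewer than 6 lists therefore held a core at under 10%, while every group of sites without CP190 stood above 30%. The order of the classes was the same at each position against genes, with 59.3% against 46.1% in introns, 63.8% against 33.3% in exons, 56.5% against 32.7% in intergenic sequence and 53.8% against 33.6% within 200 bp of a start.

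Other motifs were far less frequent than the CTCF core at sites without CP190. The Su(Hw) core TTGCATAC stood at 5 sites (1.05%, against 1.06% of genome windows), TATCGATA, which BEAF-32 and DREF bind, at 2 (0.422% against 0.558%), and GAGAGAG at 11 (2.32% against 2.43%). The Pho motif GCCATNTT stood at 25 sites (5.27% against 4.13%) and GTGTGTGT, a repeat bound by Cg, at 28 (5.91% against 3.62%), where the Wilson interval of 4.12 to 8.41% lies above the genome share. At sites with CP190 the first 3 stood at 25 (2.21%), 30 (2.65%) and 30 (2.65%), and the last 2 at 47 (4.16%) and 33 (2.92%). Matches were sought on both strands, and a match is a run of letters and not a measured binding site.

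The sites without CP190 lay farther from transcription starts than those with CP190, and no genome share was computed for these positions. The CTCF summit was within 200 bp of a start at 26 of them (5.49%, 3.77 to 7.92%) against 265 of those with CP190 (23.4%, 21.1 to 25.99%), and the median distance to a start was 3649.5 bp against 908 bp. Introns held 221 (46.6%, 42.2 to 51.1%) against 282 (24.9%, 22.5 to 27.5%), exons 80 (16.9%) against 141 (12.5%) and intergenic sequence 147 (31.0%) against 441 (39.0%). Of the 80 in exons, 55 were in coding sequence, 14 in 3' UTRs, 3 in 5' UTRs and 8 in noncoding exons. As many as 191 (40.3%) were over 5 kb from any start, against 186 (16.4%).

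The sites without CP190 were also richer in G and C around the summit, with a median of 46.5% against 40.0% at sites with CP190 and 42.0% in genome windows, and their regions were narrower, with a median width of 964 against 1195 bp. The X chromosome, which makes up 17.6% of the length of the arms, held 128 of them (27.004%, 23.2 to 31.2%) against 224 with CP190 (19.8%, 17.6 to 22.2%). Chromosome 4 held 1 site without and 14 with CP190.

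**Figure D1:**
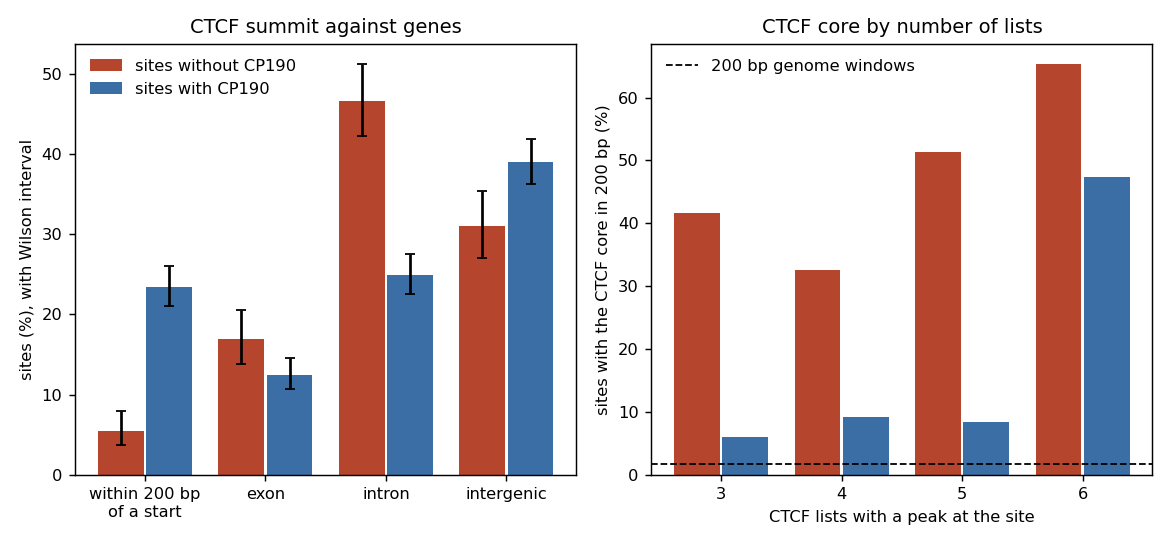
Left, percent of CTCF sites without CP190 (red) and with CP190 (blue) whose summit lies within 200 bp of a start, in an exon, in an intron or between genes, with 95% Wilson intervals; right, percent of sites with the CTCF core by the number of CTCF lists with a peak, where the dashed line is the genome share. Sites without CP190 stand at 46.6% in introns against 24.9%, and hold a core at 65.3% against 47.4% when called in all 6 lists.

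A total of 317 sites without CP190 lay inside 293 different genes, since overlapping genes count each. The gene kirre on the X chromosome, which encodes an immunoglobulin-type adhesion protein, held 9 of them. The poorly characterised CG31145 held 5, and CG34109, CG44153 and Ten-a, a teneurin of neuronal wiring, held 4 each. Another site without CP190 lay within 10 kb of 53 sites, and the median gap between neighbours was 64226 bp.

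The choice of the sites set kept CP190 regions apart from them, and the distances were not compared with those of random positions. No CP190 list had a peak at 433 of them, and 41 overlapped peaks of 1 or 2 lists, which is below the minimum of 3. The nearest kept CP190 region lay a median of 7268 bp away, the closest at 48 bp, and 17 sites had one within 500 bp and 188 (39.7%) within 5 kb. The 3 control lists of CP190 had a peak at 9, 8 and 16 of the 474 sites and the 3 rumpRNAi lists at 5, 11 and 7, so that the conditions overlapped.

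CTCF was called at the sites without CP190 as regularly as at the others. Peaks in all 6 lists stood at 331 (69.8%) of them and at 812 (71.8%) of the sites with CP190. In the control libraries 334, 467 and 454 of the 474 sites had a CTCF peak, and in the rumpRNAi libraries 472, 474 and 409. The lists themselves differed in length, with 1180, 1630 and 1582 CTCF peaks in control and 1747, 2187 and 1395 in rumpRNAi, and the lowest counts at the sites came from the shortest list of each condition. No site without CP190 had CTCF in all libraries of one condition and none of the other, and of all 1605 kept CTCF regions 0.187% had it in rumpRNAi only and 0% in control only.

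CTCF fold enrichment at sites without CP190 had medians of 4.44, 6.76 and 5.94 in control replicates 1 to 3 and 5.73, 6.88 and 4.64 in those of rumpRNAi, against 3.84, 7.39, 5.30, 4.36, 6.05 and 4.54 at sites with CP190. As a percentile of its list, the median at sites without CP190 was 60.8, 48.5 and 58.1 in control and 69.4, 70.0 and 52.2 in rumpRNAi. The sites with CP190 had 43.2, 54.4 and 48.9, and 46.7, 60.8 and 49.7. In 5 of 6 libraries the sites without CP190 thus had the higher median, and control replicate 2 was the exception. This library also had the highest median fold enrichment over its whole list, 6.93 against 4.07 to 5.38 in the others.

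**Figure D2:**
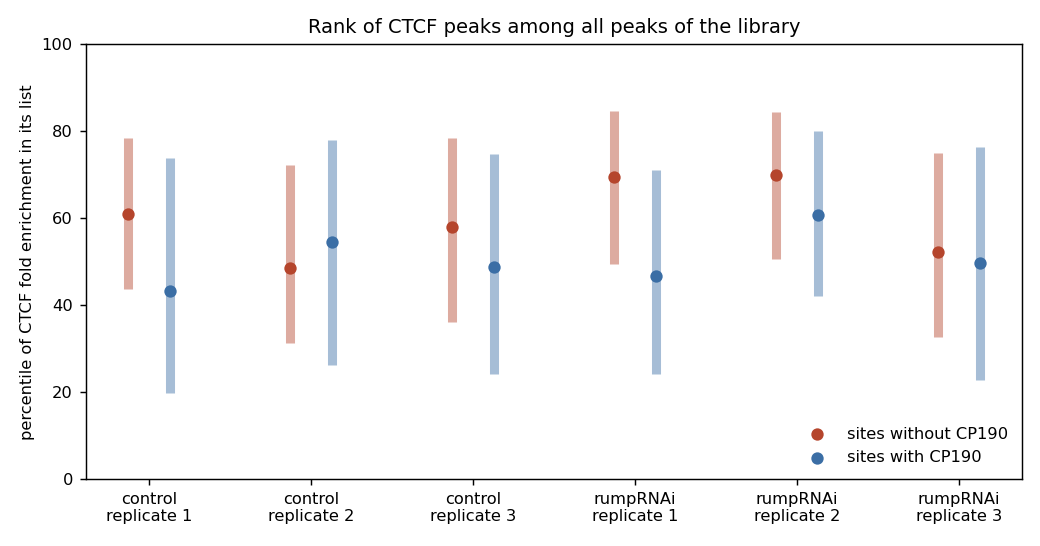
Percentile of CTCF fold enrichment among all CTCF peaks of a library, for sites without CP190 (red) and with CP190 (blue) that have a peak there; points are medians and bars run from the lower to the upper quartile. The red median lies above the blue one in every library except control replicate 2, where it is 48.5 against 54.4.

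The minimum of 3 lists fell in a range of low ranks. The 24 regions without CP190 that were called in only 2 lists, and so are not members, had a median percentile of 19.2, the highest being one near pip at 38.8. Just inside, the 24 sites called in 3 lists had a median of 27.6, with the one near the start of bs, the gene of blistered, at 48.9 and the one near CG14658 at 4.69. Sites called in 4, 5 and 6 lists had medians of 28.6, 32.2 and 68.6.

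The 12 strongest sites, by the lowest percentile over the 6 lists, ranked at 88.8 or higher in every CTCF library. The first, 6198 bp from the nearest CP190 region, was in an intron of Trim9, a ubiquitin ligase of axon guidance, 15913 bp from the nearest start, that of CG7329. Its CTCF fold enrichment was 6.73, 14.1 and 10.6 in control and 8.78, 11.5 and 7.83 in rumpRNAi, with a lowest percentile of 97.6. The second, intergenic and nearest lncRNA:CR43434, had 6.82, 14.0 and 10.9 in control and 8.74, 11.4 and 7.68 in rumpRNAi. In both the 2 conditions overlapped, and the highest and the lowest library were both control libraries.

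Several of the other strongest sites lay in or near genes known from neurons. One was 1412 bp from the start of Or67d, a pheromone receptor, and one 11284 bp from that of nAChRbeta2, an acetylcholine receptor subunit. Another was in an intron of Fas3, a cell adhesion gene, 10882 bp from the nearest start, that of Acp36DE. A further one was in an intron of pdm3, a POU domain gene. The remaining ones were nearest lncRNA:CR45035 in an intron of olf413, CG6839, snoRNA:Or-ACA8 in an intron of CG44837, CG12692, DCX-EMAP and swi2. The core was found at 10 of the 12, and not at those nearest lncRNA:CR45035 and DCX-EMAP. Those nearest lncRNA:CR43434, lncRNA:CR45035, CG12692, nAChRbeta2 and pdm3 overlapped a CP190 peak of 1 or 2 lists, and the other 7 of none. No list of neuronal genes was tested.

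**Figure D3:**
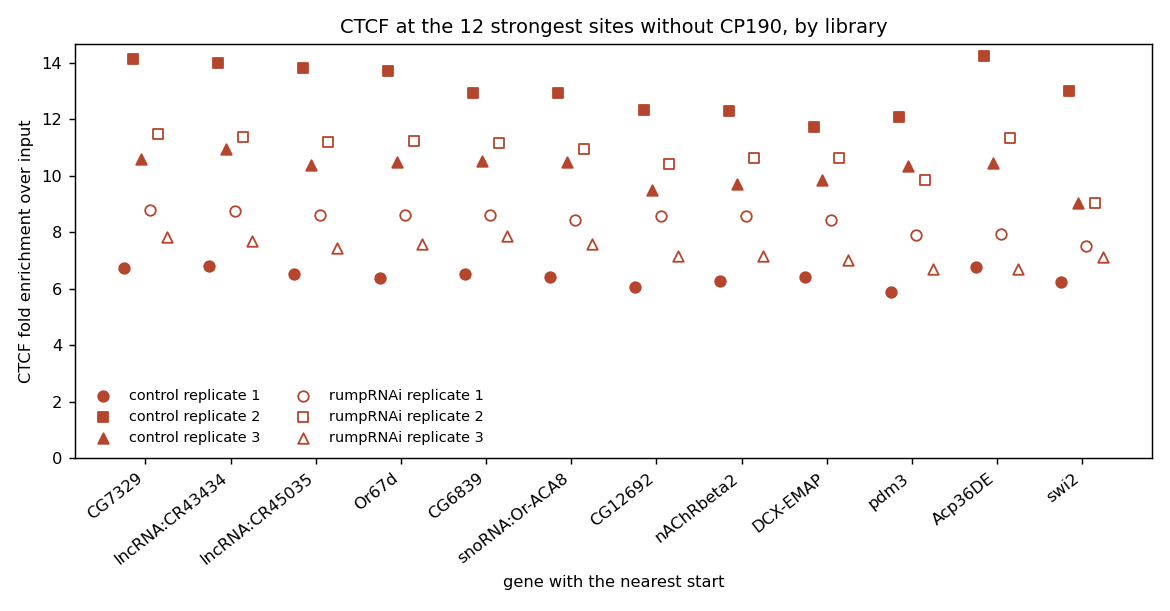
CTCF fold enrichment over input (linear axis) in the 3 control (filled) and 3 rumpRNAi (open) libraries at the 12 strongest CTCF sites without CP190, named after the nearest start. Control replicate 2 is the highest and control replicate 1 the lowest at most sites, so that the rumpRNAi libraries fall between control libraries.

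Most of the sites without CP190 overlapped no kept region of another target. Of the 474, 327 (69.0%, 64.7 to 73.0%) overlapped no kept region of any of the 11 other targets, against 204 of the 1131 with CP190 (18.0%, 15.9 to 20.4%). Exactly 1 other target stood at 80 and 2 or more at 67, against 732 sites with CP190 that carried 2 or more. The 327 sites with no kept region of another profiled target had CTCF in all 6 lists at 246 (75.2%), with a median CTCF percentile of 58.6 and a core at 192 (58.7%). Peaks of other targets in too few lists to be kept were not excluded there.

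Su(Hw) peaks were found at 22, 13 and 17 of the 474 sites in the control libraries and at 14, 8 and 9 in rumpRNAi. The mean over the 6 libraries was 2.92% ± 1.10 (SD) against 39.6% ± 7.84 at sites with CP190, and the share was lower in 6 of 6 libraries, by 36.7 points on average (exact sign-flip permutation test over 6 libraries, p = 0.0312, the smallest it can give; Benjamini-Hochberg adjusted over 11 targets 0.0382). In the genome, 5.83% of 1 kb windows overlapped a kept Su(Hw) region. Mod(mdg4) was at 17, 8 and 4 of the sites in control and 18, 5 and 3 in rumpRNAi, a mean of 1.93% ± 1.41 against 53.3% ± 11.1, lower in 6 of 6 libraries (same exact test and values of p). Replicate numbers paired the Mod(mdg4) libraries of the conditions, and with each number as 1 unit in a replicate block the exact sign-flip p was 0.25, the smallest that 3 units allow, so this call rests on taking the 6 libraries as independent. Each library gives both shares, so the test covers the spread between libraries and not the choice of sites, which are the same in all of them. The classes were split by CP190, which Su(Hw) can bring to DNA, so the split and these shares are not independent. How far the choice of sites set these differences was not tested.

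Kept Su(Hw) regions overlapped 15 sites and kept Mod(mdg4) regions 9, and 7 of these carried both. The strongest Su(Hw) stood at the intergenic site near CG1724, with a lowest percentile of 60.6 over its 6 lists, and at the one near dpr4, an immunoglobulin gene of neurons, with 19.99. Neither had Mod(mdg4) or CP190 in any list. The site with the most Mod(mdg4) lists was in coding sequence of aspr, near Rab35, a small GTPase, with all 6 lists and a lowest percentile of 6.93.

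Crol, Cg and Pho were also less frequent without CP190, though each was found. Crol was at 70, 81 and 84 of the sites in control and 112, 97 and 97 in rumpRNAi, a mean of 19.0% ± 3.13 against 34.6% ± 5.39, and 13.8% of 1 kb genome windows overlapped a kept Crol region. Cg was at 47 to 64 sites per library, 11.4% ± 1.26 against 42.7% ± 7.13, and Pho at 31 to 44, 7.45% ± 1.13 against 20.4% ± 5.20, with 9.59% and 5.54% of genome windows. All 3 were lower in 6 of 6 libraries (exact sign-flip permutation test, p = 0.0312 each, adjusted 0.0382). For Pho the adjusted p was 0.0764 when only the 200 bp around the summit were searched, and its libraries were also paired, with p = 0.25 in the exact test with a replicate block.

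**Figure D4:**
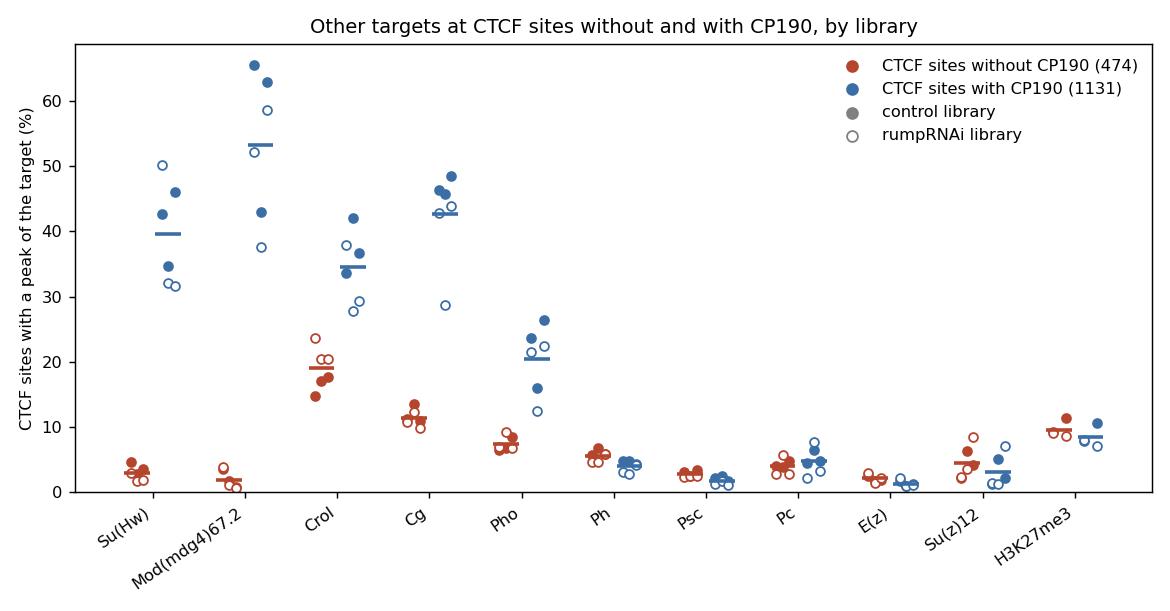
Percent of CTCF sites without CP190 (red) and with CP190 (blue) that overlap a peak of each of 11 other targets, one point per library, filled for control and open for rumpRNAi, with the mean as a line. The red points of Su(Hw), Mod(mdg4), Crol, Cg and Pho lie below the blue ones, and those of the Polycomb proteins and H3K27me3 lie among them.

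At the sites that carried them, the ranks of these proteins differed. Su(Hw) at sites without CP190 had median percentiles of 12.3 to 30.3 in its 6 lists, against 44.7 to 63.2 at sites with CP190. Crol had 50.9 to 61.5 against 57.2 to 65.2, which overlap, and control replicate 2 was higher without CP190 (59.6 against 57.2). Cg had 46.5 to 56.7 against 55.5 to 64.5, and control replicate 1 was higher without CP190 (56.7 against 55.8). Pho went the other way from Su(Hw), with 66.4 to 80.8 against 61.5 to 64.8, and was higher in each of the 6 libraries. The strongest Crol was in an intron of mamo, a zinc finger gene on the X chromosome, with a lowest percentile of 95.7, and near lncRNA:CR45541, with 93.4. The strongest Cg was in the 3' UTR of CG3894 near GstE12, a glutathione S-transferase gene, and near knrl, with 94.96 and 93.9.

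Each Polycomb protein was found at a minority of the sites, and in both classes at a larger share than of 1 kb genome windows. The genome windows held a kept region at 2.51% for Ph, 0.733% for Psc, 2.40% for Pc, 0.391% for E(z) and 1.63% for Su(z)12. The windows were not matched to the sites in width or base content. Ph was at 27, 32 and 28 of the sites in control and 22, 22 and 28 in rumpRNAi, a mean of 5.59% ± 0.820 against 4.01% ± 0.844 at sites with CP190. The share was higher in 6 of 6 libraries for Ph, by 1.58 points, for Psc (2.74% against 1.74%), for E(z) (2.11% against 1.33%) and for Su(z)12 (4.50% against 3.05%), each with p = 0.0312 in the exact sign-flip permutation test and 0.0382 adjusted. The direction turned for all of them when only CTCF regions called in all 6 lists were compared, where the differences were -2.14 points for Ph, -0.78 for Psc, -0.45 for E(z) and -1.02 for Su(z)12 (adjusted p 0.0344). Of the 27 sites without CP190 that carried a kept Ph region 7 had CTCF in all 6 lists (25.9%), against 41 of 52 with CP190 (78.8%), and the Wilson intervals of both classes overlapped, 5.70% (3.94 to 8.16%) against 4.60% (3.52 to 5.98%).

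For Pc the shares were 3.97% ± 1.17 and 4.83% ± 2.04, lower in 5 of 6 libraries (exact permutation p = 0.219), and with CTCF in all 6 lists the difference was -2.70 points (adjusted p 0.0344). H3K27me3 was at 44 and 54 of the sites in control and 43 and 41 in rumpRNAi, 9.60% ± 1.22 against 8.40% ± 1.53, higher in 4 of 4 libraries, where the exact test cannot give a p below 0.125. This direction also turned, to -2.05 points with CTCF in all 6 lists and to -0.382 with peaks of a -log10 q of 20 or more. The CTCF summit lay inside a kept H3K27me3 region at 49 sites (10.3%) against 98 (8.66%), and these regions covered 7.29% of the length of the arms. Within 2 kb of the edge of such a domain were 10 sites without CP190 (2.11%, 1.15 to 3.84%) and 70 with CP190 (6.19%, 4.93 to 7.75%).

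All 27 sites with Ph also overlapped a kept Crol region, though near corto and CG17974 only 2 and 1 Crol lists had a peak there. A kept Pho region overlapped 26 of the 27, and 14 lay in H3K27me3. Sites with CP190 were much alike: of 52 with Ph, 47 overlapped kept Crol, 51 kept Pho and 27 lay in H3K27me3. The 14 sites without CP190 were nearest Dll, cad, knrl, lncRNA:iab8, salr, ss, vvl, lz, corto, gsb-n, svp, CG14658, lncRNA:CR44552 and bs. They were listed after their values were seen. As background, Dll and cad are homeobox genes, vvl has a POU domain, knrl and svp are nuclear receptors, salr a zinc finger protein, ss a bHLH-PAS protein and lz a Runx protein of blood cell fate, and no list of such genes was tested. Dll, knrl, vvl, ss, cad and lncRNA:iab8 had Ph, Psc, Pc, E(z) and Su(z)12 in all 6 lists each, and H3K27me3 in all 4.

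CTCF differed between these sites in how often it was called. Upstream of Dll its fold enrichment was 4.91, 9.20 and 6.85 in control and 7.18, 8.41 and 5.81 in rumpRNAi, and the lowest percentile over the lists was 70.8, beside 94.8 for Ph and 96.4 for Pho. Near knrl CTCF had 4.40, 8.25 and 6.48 in control and 5.96, 8.63 and 5.49 in rumpRNAi. At ss there was no CTCF peak in control replicate 1 and rumpRNAi replicate 3, and the other libraries had 3.04 and 3.16 in control and 3.38 and 3.60 in rumpRNAi. The site in lncRNA:iab8, within the bithorax complex, was called in only 3 lists, with 2.81 in control replicate 2 and 3.34 and 3.50 in rumpRNAi replicates 1 and 2. Dll and knrl thus carried CTCF in every library, and ss and lncRNA:iab8 near the calling limit.

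The other 13 sites with Ph lay outside H3K27me3, and 8 of them were in exons. At 7 of these 8 the summit windows had a GC of 60.0% or more, and at the one near lncRNA:CR45312 it was 46.0%. The sites near CG42784, lncRNA:CR44834, SmydA-4, l(1)G0469 and Rab35, also listed after their values were seen, had CTCF in 5 lists each and both Crol and Cg in all 6, and they also held Su(Hw) in 5 or 6 lists and Mod(mdg4) in 3 to 6. The ranks there were low: near Rab35 the lowest percentile was 6.71 for Su(Hw), 6.93 for Mod(mdg4), 2.10 for Cg and 14.6 for Ph, and CTCF had no peak in control replicate 1 and fold enrichments of 3.20 and 3.34 in the other control libraries and 3.25, 4.52 and 2.57 in rumpRNAi. Over all 9 sites with kept Mod(mdg4) the median GC was 64.5%, and 7 were in exons.

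**Figure D5:**
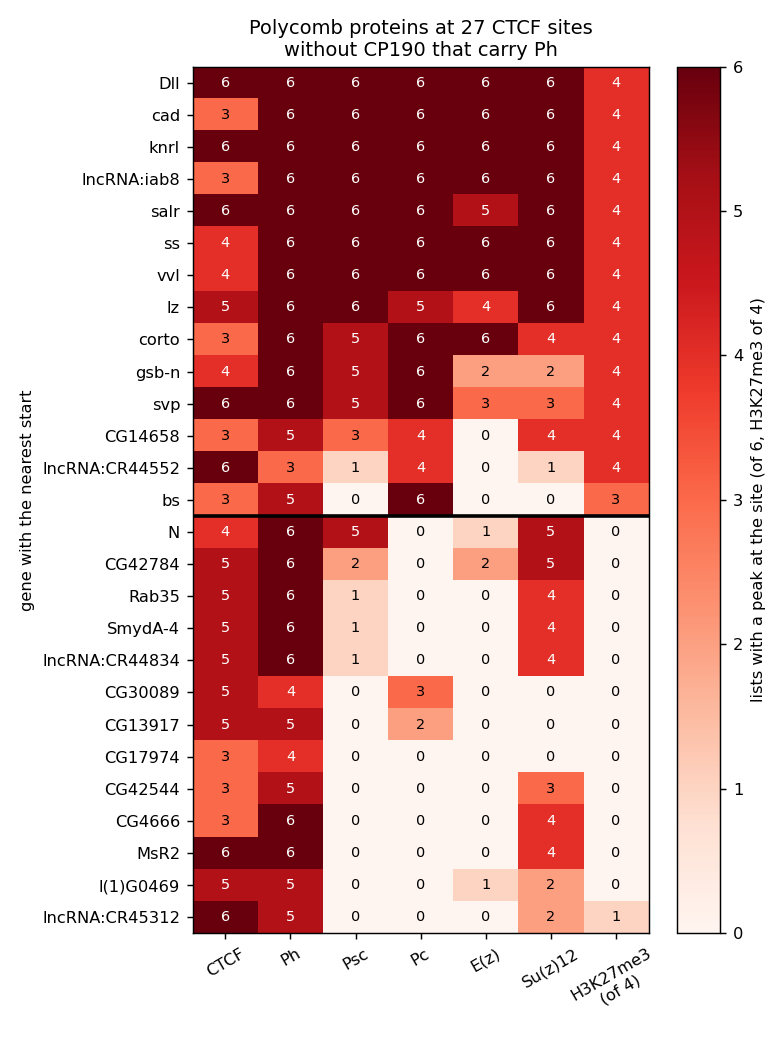
Number of lists with a peak at each of the 27 CTCF sites without CP190 that overlap a kept Ph region, for CTCF and 6 Polycomb targets (6 lists each, 4 for H3K27me3), named after the nearest start. The 14 sites above the line lie in H3K27me3, and the 13 below it have Ph in 4 to 6 lists and E(z) in at most 2.

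The strongest H3K27me3 without Polycomb proteins was near CG3546 on the X chromosome, where all 4 lists had the mark with a lowest percentile of 88.9 and none of the other 10 targets had a peak. At lz, which drives crystal cell formation, the mark had 89.4, and CTCF in coding sequence of the gene had 10.9 and 8.41 in control replicates 2 and 3 and 7.30, 8.99 and 6.50 in rumpRNAi, with no peak in control replicate 1. The site lay 2142 bp from a CP190 region and overlapped a CP190 peak of 1 list.

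Across the 2 conditions, shares were tested for the targets with kept regions at 10% or more of the sites, which were Crol, Cg and H3K27me3. For Crol the shares of 14.8, 17.1 and 17.7% in control and 23.6, 20.5 and 20.5% in rumpRNAi did not overlap. The mean was 16.5% ± 1.56 in control and 21.5% ± 1.83 in rumpRNAi (SD, n = 3), a difference of 4.99 points, with p = 0.1 in the exact permutation test, the smallest that 3 libraries against 3 allow, and 0.3 adjusted over 3 targets. The Crol lists were themselves longer in rumpRNAi, with 11117, 9883 and 10027 peaks against 7214, 8903 and 8693, and with lists cut to equal length the difference was 0.281 points (exact permutation p = 0.9). It was also smaller with peaks of a -log10 q of 20 or more (1.55 points, exact permutation p = 0.5), with CTCF in all 6 lists (3.02) and in the 200 bp window (3.16).

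Sites with CP190 had a lower mean Crol share in rumpRNAi than in control, within the spread of the libraries. Their shares were 33.6, 42.0 and 36.7% in control and 37.9, 27.9 and 29.3% in rumpRNAi, 37.4% ± 4.25 against 31.7% ± 5.46 (exact permutation p = 0.3). The share without CP190 minus that with CP190 was -20.9 ± 3.47 points in control and -10.2 ± 3.65 in rumpRNAi, which differ by 10.7 points (p = 0.1, the smallest possible in this exact test), and it was 8.21 points with lists of equal length. The GC content at the summit of all Crol peaks was also higher in rumpRNAi, with list medians of 59.0, 60.0 and 60.5% against 54.5, 57.0 and 57.0%. The 30 sites without CP190 called for Crol in rumpRNAi only had a median GC of 55.2%. It was 42.0% at the 7 called in control only and 53.0% at the 71 called in both. Sites with CP190 had 41.0% at the 35 called in rumpRNAi only and also at the 106 called in control only. At the 313 called in both it was 45.5%. The part of base composition in the difference was not tested.

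Crol was in all rumpRNAi and no control libraries at 8 sites without CP190 and the reverse at 1, while over all 1605 kept CTCF regions 0.872% gained and 0.935% lost it in this way. The 8 were listed after their values were seen and lay in exons of ham, a PRDM zinc finger gene, of Rh50, a Rhesus-type transporter gene, and of skd, a Mediator subunit gene, at the start of Eglp3, in introns of CG6184 and of acj6, a POU domain gene, and near lncRNA:CR45513 and CG1724. The lowest Crol percentile at them was 1.20 to 23.2, so these were weak peaks. The 1 loss, with 18.2, was in an intron of Eip75B, the ecdysone-induced nuclear receptor.

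The means of Cg and H3K27me3 at sites without CP190 differed by -0.914 and -1.48 points between the conditions. Cg was at 53, 64 and 52 of the 474 sites in control and 51, 58 and 47 in rumpRNAi, 11.9% ± 1.40 against 11.0% ± 1.17 (exact permutation p = 0.5, adjusted 0.5), and the conditions overlapped. At sites with CP190 Cg was at 46.8% ± 1.44 and 38.5% ± 8.54, which differ by -8.34 points and did not overlap (exact permutation p = 0.1, the smallest possible), with rumpRNAi replicate 2 lowest at 28.6%, and the changes of the 2 classes differed by 7.43 points (exact permutation p = 0.2). H3K27me3 was at 10.3% ± 1.49 and 8.86% ± 0.298 (n = 2 and 2), which did not overlap. The exact test cannot go below p = 0.333 there. At sites with CP190 the mark was at 9.24% ± 1.94 and 7.56% ± 0.688, which differ by -1.68 points. The changes of the 2 classes differed by 0.203 points (exact permutation p = 0.667). With lists of equal length the change without CP190 was -0.738 points. The mark was lost in the sense above at 3 sites, near lncRNA:CR43917, in an exon of pros and in an intron of Sp1, beside 0.561% of all kept CTCF regions.

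Other switches were few. Su(Hw) was lost at 2 sites, near CG30089 and CG4666, Cg at 1 in Vsx1, Pho and Ph at the same site near lncRNA:CR44552, and Psc at 1 near CG14658, beside 0.249%, 0.685%, 0.125%, 0.249% and 0.0623% of all kept CTCF regions. None of these 5 targets, nor Mod(mdg4), Pc, E(z), Su(z)12 or H3K27me3, was gained at a site without CP190. Calls in all libraries of one condition and none of the other rest on peak calling alone, and the sequencing depth behind each call is unknown here.

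Gene lists were read for what the sites without CP190 overlap, counting a gene with the 2 kb upstream. Of 23 Polycomb group genes found in the annotation, 2 held 3 sites without CP190 and none with. One of these was in an intron of crol itself, with Crol and Cg in all 6 lists at lowest percentiles of 92.5 and 92.0, and the other 2 were in introns of jing, a zinc finger gene. Of 18 hemocyte genes, 3 held 3 sites (0.633%) against 7 with CP190 (0.619%). The strongest was in the coding sequence of eater, a phagocytic receptor of hemocytes, where CTCF had 6.21, 10.4 and 9.02 in control and 6.95, 10.7 and 6.73 in rumpRNAi, and where no other target, CP190 included, had a peak.

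Ecdysone response genes held 5 sites without CP190 (1.05%) and 13 with (1.15%). The 5 were in Eip75B, Eip63E, a cyclin-dependent kinase gene, and br, which encodes the Broad transcription factors, and in an Eip75B intron Cg had a lowest percentile of 91.9. Insulator and cohesin genes held 2 without and 3 with CP190. Of the 2, 1 was counted for dwg, which encodes an insulator zinc finger protein, but had its summit in coding sequence of vilya. This site lay 60 bp from a kept CP190 region, overlapped a CP190 peak of 1 list and had CTCF in 4 lists. The other was in an intron of shep, which encodes an RNA-binding protein that acts on insulators. The 12 Hox genes held none without and 9 with CP190. The lists are short, and the counts were not tested.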

How the data were processed

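The authors trimmed reads with Trim Galore 0.6.7, aligned them to dm6 with Bowtie2 2.5.3 and used MACS2 2.2.7.1 to call peaks in every library against its input, per the paper and the labels' processing notes, so no list pools replicates. Fold enrichment in the deposited lists is the ratio of ChIP over input signal, and the -log10 p and -log10 q are those of the authors' MACS2 run, while the deposited score is a whole number made from them and was not used. Of 110 samples, 76 had a list. Of the inputs, 17 are control and 17, titled as depleted cells but labelled with GFP dsRNA, were unassigned and not used. In some Polycomb lists the peak names carry another replicate number than the labels, and labels were followed.

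Lists were read with Python 3.11.15, numpy 2.4.6, pandas 2.3.3 and scipy 1.17.1, and drawn with matplotlib 3.10.9. All peaks ended within the arms of the reference. Regions needed peaks in 3 of 6 lists, or 2 of 4 for H3K27me3, and an overlap of 1 bp. Genes came from Ensembl release 115 (BDGP 6.54), sequences and motif counts from the RefSeq assembly of the same build, in 200 bp around the median summit, and positions are counted from 1. The sites, gene lists and tests were chosen with earlier results of these data known. Named are the 12 strongest sites, 2 per target, sites in the gene lists and sites at the threshold, and others are marked as listed after their values were seen. Sequence from arm 2R is not shown.

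Two-sided exact permutation tests were run on shares per library, by sign-flips within a library between classes and by regrouping 3 against 3 between conditions, where no p below 0.1 is possible, with Benjamini-Hochberg adjustment. The labels call the libraries replicates, and p-values measure the spread between them only, with the libraries taken as independent unless a replicate block is named. The scripts were tested on simulated lists. Alternatives were another overlap window, a -log10 q of 20 or more, CTCF in all 6 lists, lists of equal length, a replicate block and each library left out. Lists hold no read counts, so depth is unknown and the authors' differential test was not repeated. Wilson intervals cover counting error over sites only.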

Additional observations from a re-analysis of the deposited data

How the results depend on the processing

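The number of CTCF sites without CP190 was 474 and ranged from 456 to 486 with 1 library of each protein left out. It was 377 with all 6 lists required and 482 with 2 or more, where the required number applied to both CTCF and CP190. With all 6 required, CTCF sites with CP190 in fewer than 6 lists thus also counted as without CP190. The 377 are therefore not a stricter subset of the 474, of which 331 had CTCF in all 6 lists. The lower shares of Su(Hw), Mod(mdg4), Crol and Cg kept their direction and their call in all settings where the test could pass. For Pho the 200 bp window gave -9.59 points and an adjusted p of 0.0764.

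The small Polycomb differences depended on which CTCF regions entered. With CTCF in all 6 lists the share without CP190 minus that with CP190 was -2.14 points for Ph, -0.783 for Psc, -2.70 for Pc (now past the threshold), -0.450 for E(z), -1.02 for Su(z)12 and -2.05 for H3K27me3. With a -log10 q of 20 or more it was 0.189 for Pc and -0.382 for H3K27me3. The cause was not tested. With lists of equal length the change of Cg was 0.422 points and that of Crol 0.281.

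With each library left out, the difference between classes ranged from -38.0 to -34.5 points for Su(Hw), -54.4 to -49.3 for Mod(mdg4), -17.2 to -13.7 for Crol, -34.2 to -30.0 for Cg, -14.9 to -11.9 for Pho, 1.504 to 1.715 for Ph, 0.883 to 1.19 for Psc, -1.14 to -0.483 for Pc, 0.730 to 0.822 for E(z), 1.29 to 1.57 for Su(z)12 and 1.07 to 1.34 for H3K27me3. The change from control to rumpRNAi ranged from 3.94 to 5.59 for Crol, -1.55 to -0.105 for Cg and -2.53 to -0.422 for H3K27me3, and the difference of the Crol changes, an alternative added after seeing the data, from 8.74 to 12.8.

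Replicate numbers counted as pairing libraries when every pair correlated above 0.1. They did not pair those of Crol (correlations of deviations 0.000459 to 0.0103), Cg (0.00760 to 0.207) or H3K27me3 (0.0219). In 3 of 3 pairs of Cg, Ph, Psc and Pc, and 2 of 2 of H3K27me3, the own number still correlated best. The tests between classes had no replicate block for these targets and rest on taking the libraries as independent. A replicate block left the changes of Crol, Cg and H3K27me3 at 4.99, -0.914 and -1.48 points, with exact sign-flip p of 0.25, 0.25 and 0.5, the smallest that 3 and 2 pairs allow. Only in Mod(mdg4) and Pho did every pair correlate above 0.1, with 0.121 to 0.398 and 0.154 to 0.351. With each number as 1 unit, an alternative added after seeing the data, the differences between the classes were -51.4 and -12.9 points with p = 0.25 in the exact test, which cannot go lower.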
